A study of Rattus norvegicus with 6 samples.

Results

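The antioxidant enzymes described here are the products of Sod1, Sod2, Cat, Gpx1, Gpx3, Nqo1, Gclc, Gclm, Prdx1 and Hmox1, 10 genes given by name. Earlier results of these data were known when they were chosen. Every probe set that the array's annotation gives 1 of these symbols, and no other, was taken. That yielded 10 of the 15923 probe sets on the array, for 9 of the genes, with 2 probe sets for Gclc. The probe set that carries the Prdx1 name also carries a second symbol, so it could not be assigned and is not described.

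The study measured total RNA of skeletal muscle in 3 male Wistar rats, 8 weeks old, called animals 4, 5 and 6. In each rat the peroneal nerve was cut and joined to the biceps femoris, and after 4 weeks its 2 stumps were joined to each other. Survival was 8 weeks, and the labels do not say from which operation it was counted. The ipsilateral tibialis anterior, the muscle on the operated side, was set against the contralateral tibialis anterior of the same rat, the opposite leg, so each group holds 3 arrays. The title abbreviation Cont was read as contralateral. All animals received the same ketamine and xylazine anaesthesia and surgery, and the contralateral leg is not that of an unoperated rat. Markers of skeletal muscle fibres were bright on every array, their 9 measured genes summing to intensities of 44471 to 48740 ipsilaterally and 51293 to 60236 contralaterally. They were Acta1, Ckm, Mb, Des, Tnnc2, Tnni2, Tnnt3, Actn3 and Pvalb, and slow-fibre genes were summed in a list of their own.

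Cells make superoxide and hydrogen peroxide as by-products of respiration and of several oxidases. Superoxide dismutases turn superoxide into hydrogen peroxide, and catalase and the glutathione peroxidases reduce that to water. Glutathione is supplied by glutamate-cysteine ligase, and the transcription factor Nrf2, bound to antioxidant response elements, drives many of these genes. In muscle, mitochondria-rich fibres are known for a high content of such enzymes.

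No antioxidant enzyme transcript differed between the muscles beyond the adjusted threshold. The 2 widest differences among the tested member probe sets were those of Hmox1, lower in the ipsilateral muscle of all 3 animals by a mean of -0.38 on the log2 scale, and of Cat, higher in all 3 by a mean of 0.27. The transcripts of both superoxide dismutases, both glutathione peroxidases, Nqo1, Gclm and the brighter Gclc probe set had mean differences between -0.13 and 0.11.

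A difference is the log2 of intensity plus a pseudocount of 15.8, ipsilateral minus contralateral, averaged over 3 animals. This scale understates differences of dim probe sets. Tests come from limma's paired fit of all 9519 probe sets above a filter on dim values, at a Benjamini-Hochberg adjusted p under 0.05. Of the 10 member probe sets, 9 passed the filter. The adjusted p-values of these 9 ran from 0.77 to 0.988, and 0 of 9 passed. In the same fit 0 of 9519 probe sets passed, or 0%, with 340 higher and 265 lower at an unadjusted p under 0.05. An exact sign permutation over 3 pairs cannot go below p = 0.25. In bulk muscle, fewer cells of a type and less RNA per cell cannot be told apart. Both arrays of animal 4 had the dimmest cre hybridisation spike, 1476 ipsilaterally and 1117 contralaterally, where animals 5 and 6 had 2481 to 3605. Actin's 3′ signal was 2.87 times its middle signal in ipsilateral 6 and 2.77 times in contralateral 4, but 1.36 to 1.68 times in the remaining 4 muscles. Their part in the results was not tested.

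The letters of an antioxidant response element were looked for in the promoters of the measured genes, because such an element is the best known shared feature of this enzyme group. RefSeq sequences of assembly GRCr8, from 250 bases before to 50 bases after the start of each gene, were found for 8 of the 9 genes. The gene without a sequence was Hmox1, and bases beyond this stretch were not searched. They were searched on both strands for TGACNNNGC, which reads GCNNNGTCA on the other strand, where N is any base. The letters were present in 2 of the 8, Gclm and Sod2, and in 12.1% of all 33469 promoters of the same length. Median GC content was 60.3% in the 8 and 51.7% in all promoters. No other motif was searched, so no overlap between motifs arises. The matches stand in capitals, each with 46 bases on either side, 5′ to 3′ on the gene's strand. Gclm lies at chr2:213031917-213032017 (GRCr8, plus strand) and Sod2 at chr1:50050149-50050249 (GRCr8, minus strand).
Gclm: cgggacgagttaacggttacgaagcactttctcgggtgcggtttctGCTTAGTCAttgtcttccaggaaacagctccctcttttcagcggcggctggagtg
Sod2: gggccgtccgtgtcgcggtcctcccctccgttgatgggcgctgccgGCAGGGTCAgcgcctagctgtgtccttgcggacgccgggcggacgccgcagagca
The Gclm match begins 172 bases before the start site and the Sod2 match 35 bases before it. A match is a description of the letters and not of binding.

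**Figure D1:**
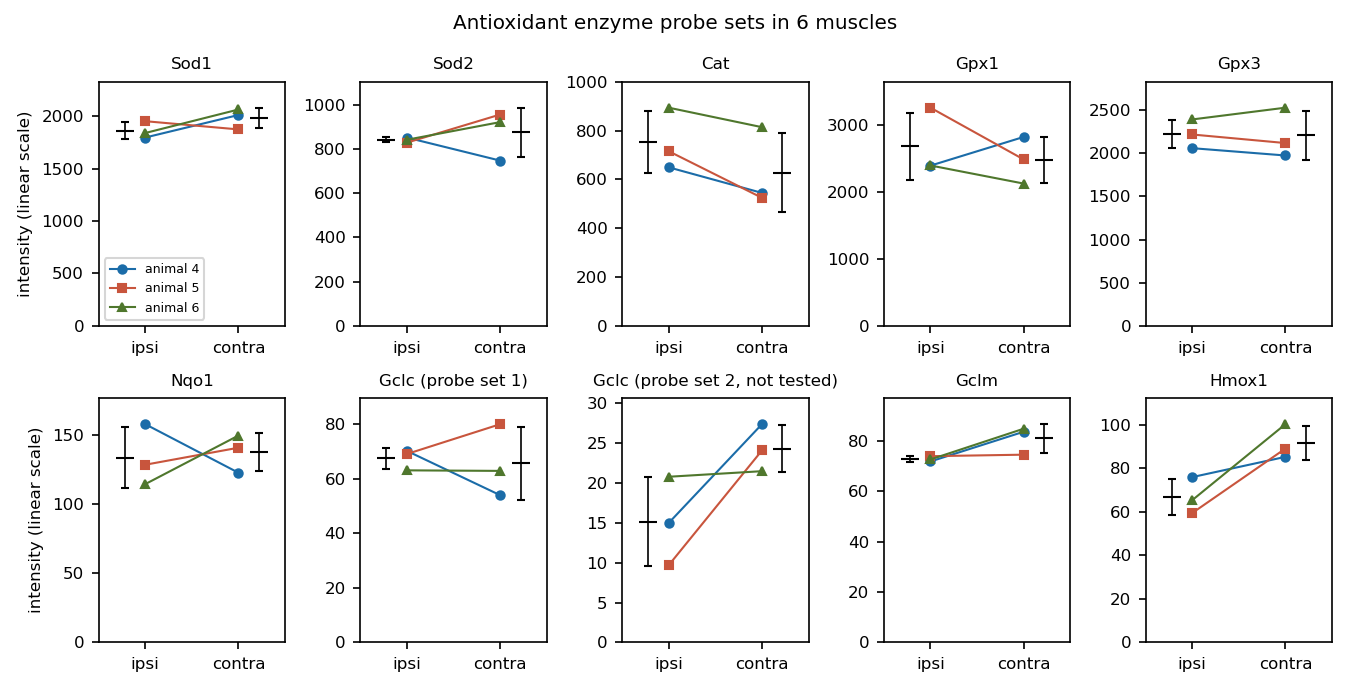
Intensity (linear scale, from 0) of each antioxidant enzyme probe set in the ipsilateral (ipsi) and contralateral (contra) muscle, with a line per animal and the group mean ± SD at the sides (n = 3 each). For Hmox1, Gclm and the dimmer Gclc probe set every ipsilateral point lies below every contralateral one, and for Cat every line runs higher on the ipsilateral side while the groups overlap.

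The superoxide dismutases had mean differences near 0. Sod1, the cytosolic copper and zinc enzyme, had intensities of 1797, 1953 and 1840 in ipsilateral 4, 5 and 6, against 2012, 1874 and 2064 in contralateral 4, 5 and 6. The groups overlapped, and the ipsilateral value was the lower in animals 4 and 6 but the higher in animal 5. Its mean difference was -0.09 (SE 0.13, 95% interval -0.38 to 0.20, adjusted p = 0.923).

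Sod2, the manganese enzyme of the mitochondrial matrix, was at 851, 829 and 842 ipsilaterally and at 747, 956 and 921 contralaterally. The ipsilateral values lay within a narrow band, 840 ± 11.3 (SD, n = 3), and the contralateral ones spread around them, 875 ± 112 (SD, n = 3). Animal 4 was higher by 0.18 and animals 5 and 6 differed by -0.20 and -0.13, for a mean of -0.05 (SE 0.15, interval -0.38 to 0.29, adjusted p = 0.967).

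Catalase, Cat, is the peroxisomal enzyme that splits hydrogen peroxide. Its intensity was 650, 716 and 894 in ipsilateral 4, 5 and 6, against 545, 525 and 814 in contralateral 4, 5 and 6. Within each animal the ipsilateral muscle was the higher, by 0.25, 0.44 and 0.13, but both muscles of animal 6 exceeded all 4 others, so the groups overlapped. The mean difference was 0.27 (SE 0.15, interval -0.06 to 0.60, adjusted p = 0.781), and 8.76% of all tested probe sets had a difference at least as high. Of the 9 tested member probe sets, Cat was the 1 higher in all 3 animals, which was true of 12.3% of all tested probe sets.

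Slow-fibre markers, and the summed signal of fat markers, were higher ipsilaterally beside Cat. The 8 slow-fibre genes summed to 13457, 24804 and 18468 in ipsilateral 4, 5 and 6 and to 11408, 9030 and 9202 in contralateral 4, 5 and 6. Of the 8, 6 were higher in every animal, against 12.3% of all tested probe sets, and none was at 0. The 6 measured adipocyte genes summed to 1506, 2430 and 2349 ipsilaterally and to 1101, 1388 and 1750 contralaterally. Of these 6, Fabp4 and Cfd were higher in every animal, Lep and Pparg were lower in every animal, and Lep was near 0 in both groups. The median difference of the 6 was 0.05, but Plin1, Lep, Lipe and Pparg were too dim to be tested. The summed signal of the 4 measured red blood cell genes ran the other way, at 3089, 3396 and 3666 ipsilaterally and 3465, 3747 and 3970 contralaterally. Hbb alone gave 2882, 3191 and 3420 ipsilaterally and 3197, 3474 and 3718 contralaterally. Hbb and Ahsp, 2 of the 4, were lower in every animal, as were 15.1% of all tested probe sets. Ahsp was too dim to be tested, Alas2 and Slc4a1 differed in direction between animals, and none of the 4 was at 0. The part of these cells in the Cat difference was not tested.

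**Figure D2:**
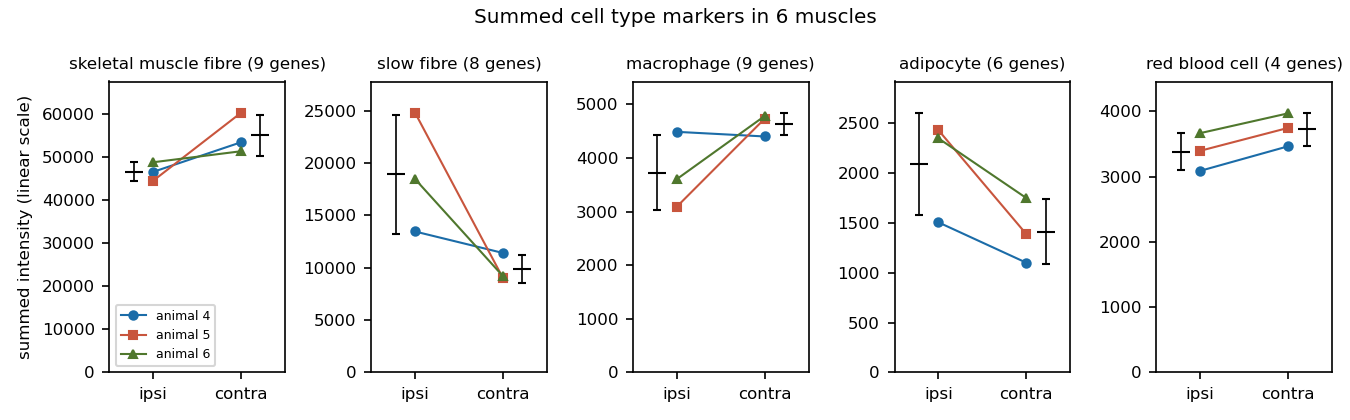
Summed intensity (linear scale, from 0) of 5 fixed marker lists in the ipsilateral (ipsi) and contralateral (contra) muscle of each animal, 1 line per animal, with mean ± SD at the sides (n = 3 each). Slow-fibre and adipocyte sums were higher ipsilaterally in all 3 animals. Skeletal muscle fibre sums, which leave out the slow-fibre genes, and red blood cell sums were lower in all 3. Of the 9 skeletal muscle fibre genes only Ckm and Actn3, 2 of 9, were lower in every animal, and 0 were higher in every animal. Over all tested probe sets these shares were 15.1% and 12.3%. Macrophage sums were lower in animals 5 and 6 but not in animal 4.

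Glutathione peroxidases, selenium enzymes that reduce peroxides with glutathione, gave no shared direction. Gpx1, the main cytosolic form, had intensities of 2392, 3257 and 2394 in ipsilateral 4, 5 and 6, against 2820, 2484 and 2124 in contralateral 4, 5 and 6. Animal 4 differed by -0.24, and animals 5 and 6 by 0.39 and 0.17, which gave a mean of 0.11 (SE 0.15, interval -0.22 to 0.44, adjusted p = 0.92). Ipsilateral 5 was the highest of the 6 muscles and contralateral 6 the lowest.

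Gpx3, the form secreted into plasma, was at 2060, 2219 and 2393 ipsilaterally and at 1975, 2119 and 2529 contralaterally. In both muscles animal 6 was highest and animal 4 lowest, so the values were set apart by animal more than by side. The differences of 0.06, 0.07 and -0.08 averaged 0.02 (SE 0.12, interval -0.26 to 0.30, adjusted p = 0.988), the smallest mean among the tested members.

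Glutamate-cysteine ligase makes the first and rate-limiting step of glutathione synthesis, with Gclc as its catalytic and Gclm as its modifier subunit. The brighter Gclc probe set had intensities of 70.1, 69.0 and 63.0 in ipsilateral 4, 5 and 6, against 53.9, 79.9 and 62.8 in contralateral 4, 5 and 6. The 3 animals gave 0.30, -0.17 and 0.00, with a mean of 0.04 (SE 0.17, interval -0.33 to 0.42, adjusted p = 0.974).

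The dimmer Gclc probe set fell below the filter and was not tested. It stood at 15.0, 9.7 and 20.8 ipsilaterally and 27.4, 24.1 and 21.5 contralaterally, lower in all 3 animals, by -0.49, -0.65 and -0.03. The groups did not overlap, but its mean difference of -0.39 is opposite in sign to that of the brighter probe set, and the gene has no settled direction. Fitted without the filter it had an adjusted p = 0.879.

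Gclm had intensities of 71.8, 73.9 and 72.6 in ipsilateral 4, 5 and 6, against 83.6, 74.5 and 84.8 in contralateral 4, 5 and 6. All ipsilateral values lay below all contralateral ones, although in animal 5 the muscles were nearly equal. Its differences of -0.18, -0.01 and -0.19 averaged -0.13 (SE 0.15, interval -0.47 to 0.22, adjusted p = 0.914). Gclm and Hmox1 were the 2 of 9 tested member probe sets lower in all 3 animals, as were 15.1% of all tested probe sets, and they were also the 2 without overlap between groups in that direction, as were 5.78%. In the opposite direction 0 of the 9 were without overlap, as were 4.74% of all tested probe sets.

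Nqo1 encodes a quinone reductase and is a standard readout of Nrf2 activity. It was at 158, 128 and 114 in ipsilateral 4, 5 and 6, against 123, 141 and 150 in contralateral 4, 5 and 6. Animal 4 was higher ipsilaterally by 0.33, and animals 5 and 6 differed by -0.12 and -0.34, the widest spread among animals of any tested member (SD 0.34). The mean was -0.05 (SE 0.17, interval -0.43 to 0.34, adjusted p = 0.973).

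Hmox1, the inducible haem oxygenase that breaks haem into iron, carbon monoxide and biliverdin, had intensities of 75.9, 59.4 and 65.3 in ipsilateral 4, 5 and 6, against 85.2, 89.0 and 100.2 in contralateral 4, 5 and 6. Every ipsilateral muscle was below every contralateral one. Group means were 66.9 ± 8.36 ipsilaterally and 91.5 ± 7.80 contralaterally (SD, n = 3 each), a ratio of 0.731.

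Animal by animal the Hmox1 difference was -0.14, -0.48 and -0.52 in animals 4, 5 and 6. The mean of -0.38 (SE 0.16, interval -0.74 to -0.02) had an adjusted p = 0.77. It was the 1 of 9 tested member probe sets with an unadjusted p under 0.05 and a lower ipsilateral value, where 2.78% of all tested probe sets met that, and 0 of 9 met it with a higher value, against 3.57%. A difference this low or lower was found in 3.34% of all tested probe sets. The unadjusted p was 0.0414 in limma's fit, but 0.0639 with no filter on dim probe sets, 0.146 without animal 5 and 0.183 without animal 6. In limma's fits it was 0.023 without animal 4, 0.0284 without pairing and 0.0388 with no intensity trend. Other pseudocounts and quantile normalization gave 0.041 to 0.0426 in limma's fits. It was not tested whether the mean differs from that of Cat or of any other member.

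Hmox1 is known to be strongly expressed by macrophages that clear haem. The macrophage markers were lower in sum in animals 5 and 6 but not in animal 4. Their 9 measured genes summed to 4487, 3089 and 3604 in ipsilateral 4, 5 and 6, against 4401, 4731 and 4781 in contralateral 4, 5 and 6. Cd68, Cd14, Cd74 and Lyz2 were lower in all 3 animals, as were 15.1% of all tested probe sets. In animal 4 Cd74 was nearly equal, at 1594.5 ipsilaterally and 1594.9 contralaterally. Of the 9, 0 were higher in all 3, as were 12.3% of all tested probe sets, and none was at 0. In animal 4 the macrophage sums differed by 0.03 on the log2 scale while Hmox1 differed by -0.14, and in animals 5 and 6 the sums differed by -0.61 and -0.41. The part of macrophages in the Hmox1 difference was not tested.

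**Figure D3:**
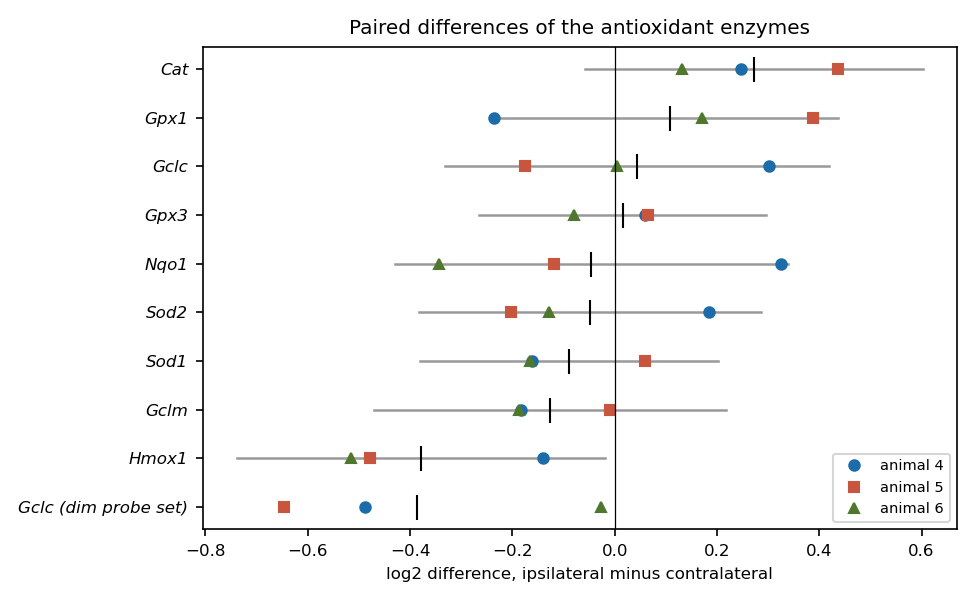
Log2 difference in intensity, ipsilateral minus contralateral, of each antioxidant enzyme probe set, with a symbol per animal, a black tick at the mean of 3 animals and a grey bar for the 95% interval of limma's paired fit. Only the interval of Hmox1, -0.74 to -0.02, leaves out 0, before any adjustment for the number of probe sets, and the dim Gclc probe set was not tested and has no bar.

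As a group the 9 tested member probe sets had a median difference of -0.05, against -0.02 over all tested probe sets. Taken by animal, that median stood at 0.06 (animal 4), -0.01 (animal 5) and -0.13 (animal 6). Their median size regardless of sign was 0.089, against 0.129 over all tested probe sets. Across the 6 muscles the log2 range of a tested member probe set ran from 0.20 for Sod1 and Gclm to 0.75 for Cat, around a median of 0.54 for all tested probe sets. Only Cat, Hmox1 and Gpx1 among the tested members ranged more widely than that median.

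The patterns of Cat and Hmox1, the 2 tested members with the widest ranges, were set beside 7108 other named genes by the root mean square difference of mean-centred log2 values over 6 muscles. Nearest to Cat were Mkln1 (0.072), Nfic (0.079), Sucla2 (0.083), Fundc1 (0.085) and Gng11 (0.090), against a median of 0.330 over all genes compared. Sucla2, a subunit of succinyl-CoA ligase in the citric acid cycle, was at 1630, 1889 and 2540 ipsilaterally and 1509, 1473 and 1978 contralaterally.

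Nearest to Hmox1 were Ddhd2 (0.047), Crip1 (0.053), Aldh5a1 (0.058), Psap (0.058) and Wipf3 (0.060), against a median of 0.273. Psap, the precursor of lysosomal saposins, was at 1359, 1151 and 1272 in ipsilateral muscles and 1440, 1666 and 1680 in contralateral muscles, without overlap. The muscles of an animal are not independent, so these distances are descriptions.

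Related genes were taken from 8 role lists, in which 83 of 100 symbols, older synonyms included, were found on the array and 68 genes were tested. None of the 68 passed the adjusted threshold. At an unadjusted p under 0.05, 3 were higher (4.41%) and 4 lower (5.88%), against 3.57% and 2.78% of all tested probe sets. In all 3 animals 8 were higher (11.8%) and 10 lower (14.7%), against 12.3% and 15.1%. The median difference of the 68 was -0.05.

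In the list of peroxiredoxins, thioredoxins and glutaredoxins the median difference was -0.15 over 17 genes. In all 3 animals 1 was higher (5.88%) and 3 lower (17.6%), against 12.3% and 15.1% of all tested probe sets. Glrx, glutaredoxin, was at 143, 94.7 and 221 in ipsilateral 4, 5 and 6, against 196, 138 and 287 in contralateral 4, 5 and 6. Its difference of -0.41 (SE 0.15) was close to equal in the 3 animals, while a dimmer Glrx probe set gave 0.31 in animal 4, and a mean of -0.31. Txnrd2, the mitochondrial thioredoxin reductase, differed by -0.39 (SE 0.17), with -0.04 in animal 6. Txnrd3 was higher in each animal, by 0.24, 0.35 and 0.37, with a mean of 0.32 (SE 0.15) and an unadjusted p above 0.05 in limma's fit.

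In glutathione genes the median was 0.01 over 20 tested genes, and Gss and Gsr, glutathione synthetase and reductase, were too dim to be tested. Mgst3, a microsomal enzyme with glutathione transferase and peroxidase activity, was at 1855, 3011 and 2345 in ipsilateral 4, 5 and 6, against 1500, 1701 and 1907 in contralateral 4, 5 and 6. It was higher in every animal, by a mean of 0.47 (SE 0.15, adjusted p = 0.583), and only ipsilateral 4 lay within the contralateral range.

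Mgst1, a related enzyme, was at 161, 226 and 337 in ipsilateral muscles and 187, 120 and 138 in contralateral muscles, a difference of 0.61 (SE 0.24) with -0.20 in animal 4. Chac1, which degrades glutathione, differed by -0.82 (SE 0.22), with -0.25, -1.47 and -0.74 in animals 4, 5 and 6. With all 3 animals, limma's adjusted p was 0.74 for Mgst1 and 0.529 for Chac1. Without animal 4, Mgst1 (1.01, adjusted p = 0.012), Chac1 (-1.10, adjusted p = 0.0164), Tfrc (0.97, adjusted p = 0.0109), Selenow (-0.65, adjusted p = 0.0303) and Nos2 (-1.14, adjusted p = 0.0258) passed limma's threshold, 5 of 68 or 7.35%, where 241 of all tested probe sets or 2.53% did. Selenow and Nos2, named for that setting after their values were seen, had differences of 0.35 and 2.23 in animal 4. With all 3 animals, their adjusted p-values in limma's fit were 0.809 and 0.998. The fit without animal 4 had 1 residual degree of freedom.

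Regulators of the Nrf2 pathway gave small differences, with a median of -0.02 over 7 genes. Nfe2l2, which encodes Nrf2 itself, was at 249, 373 and 337 ipsilaterally and 281, 276 and 260 contralaterally, a difference of 0.20 (SE 0.17) with -0.17 in animal 4. Sqstm1, the autophagy receptor p62, differed by -0.22 (SE 0.16), with 0.20 in animal 4, and its other tested probe sets gave -0.19 and -0.11. Of the genes that supply NADPH, the reducing power of these systems, the median was -0.07 over 8 genes, with 3 (37.5%) lower in all 3 animals, against 15.1% of all tested probe sets.

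Me1, malic enzyme, was at 721, 514 and 567 in ipsilateral 4, 5 and 6, against 844, 728 and 893 in contralateral 4, 5 and 6. The groups did not overlap, and the mean difference was -0.45 (SE 0.15, adjusted p = 0.641), while a dimmer Me1 probe set gave -0.27 with 0.07 in animal 4. Nnt, the mitochondrial transhydrogenase, differed by 0.26 (SE 0.16), with -0.21 in animal 4.

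Among 5 tested genes of haem and iron handling, 3 (60%) were higher in all 3 animals, against 12.3% of all tested probe sets, and the median was 0.25. Tfrc, the transferrin receptor that brings iron into cells, was at 1775, 2803 and 2013 in ipsilateral 4, 5 and 6, against 1774, 1172 and 1235 in contralateral 4, 5 and 6. The 2 muscles of animal 4 were nearly equal, and animals 5 and 6 gave 1.25 and 0.70, for a mean of 0.65 (SE 0.21, adjusted p = 0.586). A dimmer Tfrc probe set gave 1.10 (SE 0.27), with 0.61 in animal 4. Slc40a1, the iron exporter ferroportin, differed by -0.04 (SE 0.15), and its other tested probe set by -0.22 (SE 0.22).

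Of the remaining lists, Sod3, the extracellular superoxide dismutase, differed by -0.23 (SE 0.18) and Ccs, the copper chaperone of Sod1, by -0.10 (SE 0.17), both with a value above 0 in animal 4. Mt2A was the 1 metallothionein bright enough to be tested, at -0.11 (SE 0.18). Oxidant-producing enzymes had a median of -0.12 over 8 genes, from -0.28 (SE 0.16) for Xdh, xanthine dehydrogenase, to 0.25 (SE 0.16) for the aldehyde oxidase Aox1.

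**Figure D4:**
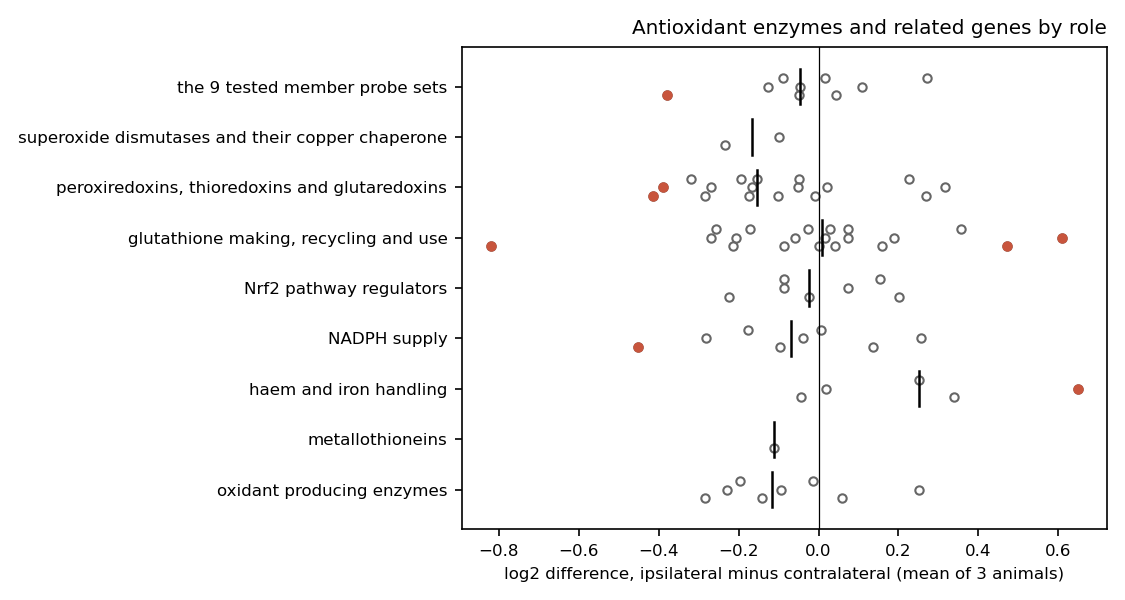
Mean log2 difference in intensity over 3 animals, ipsilateral minus contralateral, of the 9 tested member probe sets and of 68 related genes by role, with a black tick at each list's median and filled points at an unadjusted p under 0.05. Points lie on both sides of 0 in most lists, the lowest being Chac1 at -0.82 and the highest Tfrc at 0.65, and no point passed the adjusted threshold.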

How the data were processed

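The authors deposited linear, unlogged intensities for each probe set of each array. The sources used here do not name the software behind them. Their trimmed mean was 150.0 to 150.1 on each of the 6 arrays and medians ran from 60.3 to 66.6. Of 15923 probe sets, 57 controls were left out, and the annotation gave 12789 probe sets 1 symbol, 312 several and 2822 none. The pseudocount of 15.8 is the 20th percentile of all values, and probe sets above the 40th percentile of mean log2 value (an intensity of 42.4) were tested. limma 3.58.1 in R 4.3.3 (lmFit, eBayes with trend) was fitted with the animal as a block, checked on simulated data, with 2 residual degrees of freedom and a median prior of 7.47. The pairing comes from the design: both muscles are of 1 animal, with correlations of their deviations of -0.04, 0.07 and 0.13.

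A gene is given by its brightest probe set. Of each role list the genes with the largest positive and negative difference, and those of unadjusted p under 0.05 with 1 sign in 3 animals, were named, as were the 5 nearest patterns of the 2 tested members with the widest range. Members and lists were chosen with earlier results of these data known. No batch is given in the labels. The number of arrays limits the precision.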

Additional observations from a re-analysis of the deposited data

How the results depend on the processing

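The median difference of the members was tried under 9 alternatives: without pairing by animal, pseudocounts at the 5th and 40th percentiles, quantile normalization, no filter, no trend, and each animal left out. Unpaired, with no replicate block, the median was -0.05, which leaving out the block cannot change in a balanced design, and 0 probe sets passed. In limma's fits 0 of all tested probe sets passed under every alternative except without animal 4, so leaving out an animal gave 0 to 241, and the members' median then ran from -0.085 to 0.063, and was above 0 only without animal 6. The cause was not tested. Of 81 member values under the alternatives, 75 kept their direction, 6 turned it and 0 passed the threshold. The 75 include the values without pairing, without the filter and without the trend. Those settings cannot change a member's difference in this balanced design, only its p-value. All 6 turns came from leaving out an animal, where Gpx3 ran from -0.0096 to 0.063, Gclc from -0.085 to 0.15, Sod2 from -0.17 to 0.028, Gpx1 from -0.032 to 0.28 and Nqo1 from -0.23 to 0.10. Cat stayed between 0.19 and 0.34 and Hmox1 between -0.50 and -0.29 over all alternatives, and the lowest adjusted p of Hmox1 was 0.215, without animal 4. Dim probe sets, such as the second one of Gclc, have little signal above the pseudocount.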
